A study of Homo sapiens with 17 samples.

Results

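The genes described here were the longest transcription units that were measurable in HEK293T RNA. They were the genes of the count table whose exons all lay on 1 chromosome, whose first and last exon bases lay more than 500 kb apart, and whose mean count over the 6 input libraries was at least 20, leaving out symbols that begin with COL or LAM (which removed 0 genes). They were thus selected on span and on measured input counts. Of the 23368 genes listed, 419 reached this span, 264 of these fell short of the count minimum, and 155 were retained. Of these, 19 genes were retained on their WT level alone and 5 on their siTDP43 level alone. Those 24 had to differ between the groups, so the counts over all 155 are descriptions.

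HEK293T is a human embryonic kidney line transformed with adenovirus and SV40 large T sequences. Its RNA was immunoprecipitated with an antibody against N4-acetylcytidine (ac4C), a cytidine modification made by the acetyltransferase NAT10, and both pull-down and starting RNA were sequenced (acRIP-seq). WT cells gave 3 input, 3 IP and 2 IgG libraries, and cells in which TDP43 (gene TARDBP) was depleted by siRNA, labelled siTARDBP and called siTDP43 here, gave 3 of each. The WT cells carry no treatment in the labels and no control siRNA is named for them, so knockdown, transfection and culture cannot be told apart in any siTDP43 against WT comparison, and nothing states that replicates were separate cultures, so p-values measure the spread between these libraries only.

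TDP43 is a nuclear RNA-binding protein that recognises UG-rich stretches. In brain, transcripts with very long introns are a well-known class that depends on it, and its loss there lowers many of them. A gene that spans such a distance consists almost entirely of introns, takes hours to transcribe and is often active in neurons, where long genes encode adhesion molecules, channels and scaffolds. Several of the longest human genes also lie over common fragile sites, regions that break when replication is slowed.

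The siRNAs that the study lists against TDP43 are shown because every comparison with knockdown rests on them. The capitals are the complete sense strands, including the TT overhang. The first matches coding sequence in exon 2 of TARDBP (hg19, chr1:11073948-11073966, plus strand) and the second matches coding sequence in exon 4 (chr1:11078873-11078891).
siTDP43 sense 1: GGCUGGUAGAAGGAAUUCUTT
siTDP43 sense 2: GUCACAGCGACAUAUGAUATT

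TARDBP itself measured 156.8, 164.6 and 158.8 CPM (counts scaled to library size with TMM factors) in WT input and 103.8, 108.2 and 111.0 CPM in siTDP43 input. All siTDP43 libraries lay below all WT libraries, and the log2 change was -0.57 ± 0.0451 (SE, edgeR quasi-likelihood test, adjusted p = 6.55e-13). Of the markers checked, VIM, NEFL and LIN28B were present in every input library, and PECAM1, CDH5 and PTPRC, which mark endothelial cells and leukocytes, had 0 counts in each. VIM, however, averaged 826.1 CPM in WT input and 276.2 CPM in siTDP43 input.

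The 155 genes had a median span of 684.6 kb (500.1 to 2331.1 kb). Their longest exon-free stretch measured 201.8 kb at the median, while their exons summed to a median of only 6648 bases with 45% GC. Just inside the span limit lay AFF2 (500.1 kb) and PPFIA2 (501.1 kb), and just outside lay DIAPH3 (498.4 kb) and CPQ (498.2 kb). CACNA1C (mean count 20) just reached the count minimum, and LSAMP (19.8) just missed it. The entry with the widest span, ULK4P3, consists of separate loci on chromosome 15 counted under 1 name, and LOC440354 likewise consists of separate copies on chromosome 16, so their spans are not those of single transcription units and reads of their near-identical copies are uncertain. Exons of 12 genes overlap those of another gene, and whether reads were counted by strand is not given in the sources used here, so their counts may include their neighbour's reads. Some symbols are old: FAM190A is now CCSER1, ODZ1 is TENM1 and GPR98 is ADGRV1.

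Uninterrupted TG repeats on the coding strand, which read as UG in the RNA, were searched in the span outside the gene's own exons, with at least 6 TG units required and the opposite strand counted separately. Every one of the 154 genes on 1 strand held such repeats, between 6 and 96 each with a median of 22. They came to 3.32 per 100 kb on the coding strand and 2.51 on the opposite strand, against 3.01 and 1.97 in the 2123 genes of 100 to 500 kb with the same count minimum. The median number was 22 in the long genes that were lower in siTDP43 input and 22 in those that were higher. The longest repeat is printed below, with 15 bases on either side, for the 5 genes that fell most and the 5 that rose most in input among those with a mean of at least 50 counts (hg19, coding strand, 5′ to 3′, repeat in capitals).
NELL1 (fell), chr11:21321043-21321124: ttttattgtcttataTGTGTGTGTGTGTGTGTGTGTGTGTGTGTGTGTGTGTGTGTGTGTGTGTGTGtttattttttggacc
FGF13 (fell), chrX:137777135-137777210: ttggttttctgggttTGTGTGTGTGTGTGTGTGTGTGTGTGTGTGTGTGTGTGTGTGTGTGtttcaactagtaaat
DACH2 (fell), chrX:85880199-85880276: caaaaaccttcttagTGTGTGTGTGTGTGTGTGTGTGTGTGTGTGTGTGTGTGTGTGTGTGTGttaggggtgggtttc
FHIT (fell), chr3:59750576-59750661: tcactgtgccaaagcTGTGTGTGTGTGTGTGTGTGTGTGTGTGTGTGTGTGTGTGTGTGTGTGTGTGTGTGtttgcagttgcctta
SPOCK1 (fell), chr5:136815978-136816047: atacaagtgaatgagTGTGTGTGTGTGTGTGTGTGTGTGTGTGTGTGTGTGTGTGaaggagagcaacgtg
SPOCK3 (rose), chr4:167673711-167673780: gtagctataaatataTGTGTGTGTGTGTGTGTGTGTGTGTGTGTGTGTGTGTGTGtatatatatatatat
GALNT13 (rose), chr2:154820230-154820309: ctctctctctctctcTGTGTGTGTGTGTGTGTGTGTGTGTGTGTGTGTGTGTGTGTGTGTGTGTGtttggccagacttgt
NRXN3 (rose), chr14:79159986-79160069: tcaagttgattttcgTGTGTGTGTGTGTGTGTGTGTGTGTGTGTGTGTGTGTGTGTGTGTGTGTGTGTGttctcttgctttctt
CDH12 (rose), chr5:21804739-21804818: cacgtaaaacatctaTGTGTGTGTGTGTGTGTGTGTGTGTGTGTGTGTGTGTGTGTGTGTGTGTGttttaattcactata
MECOM (rose), chr3:168901536-168901623: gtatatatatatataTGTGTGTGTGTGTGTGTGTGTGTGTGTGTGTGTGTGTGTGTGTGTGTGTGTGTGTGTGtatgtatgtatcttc

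These repeats ran to 20 to 28 TG units in the falling genes and 20 to 29 in the rising genes. The nearest exon of the gene lay between 1.47 kb (SPOCK3) and 70.1 kb (NELL1) away. NRXN3 held 56 repeats in all and FHIT 50, the most in each set, while SPOCK1 held 12 and SPOCK3 17, the fewest.

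Knockdown was followed by lower input levels of most of the long genes that changed. Of 155 genes, 79 (51.0%) were lower and 29 (18.7%) higher in siTDP43 input at an adjusted p below 0.05, and 47 did not pass. Among all 14036 genes tested, 40.6% were lower and 38.6% higher. The median log2 change was -0.43 over the 155 genes and -0.05 over all genes, and it was -0.39, -0.41 and -0.38 when each siTDP43 library was set against the WT mean. Over the 131 long genes that reached the count minimum in both groups, 62 (47.3%) were lower and 24 (18.3%) higher with a median of -0.27, where 38.5% and 41.8% of 12121 genes held to the same minimum were lower and higher, with a median of 0.0357. Falls of more than 2-fold that passed the test numbered 53, and rises of that size 13, with no matching share over all genes at hand. The quartiles of the log2 change were -1.25 and 0.24 over the 155 genes and -0.86 and 0.66 over all genes. Of the 19 genes retained on their WT level alone, 17 were lower. The 5 retained on their siTDP43 level alone were all higher. In a bulk sample, fewer cells that express a gene and less RNA per cell cannot be told apart.

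**Figure D1:**
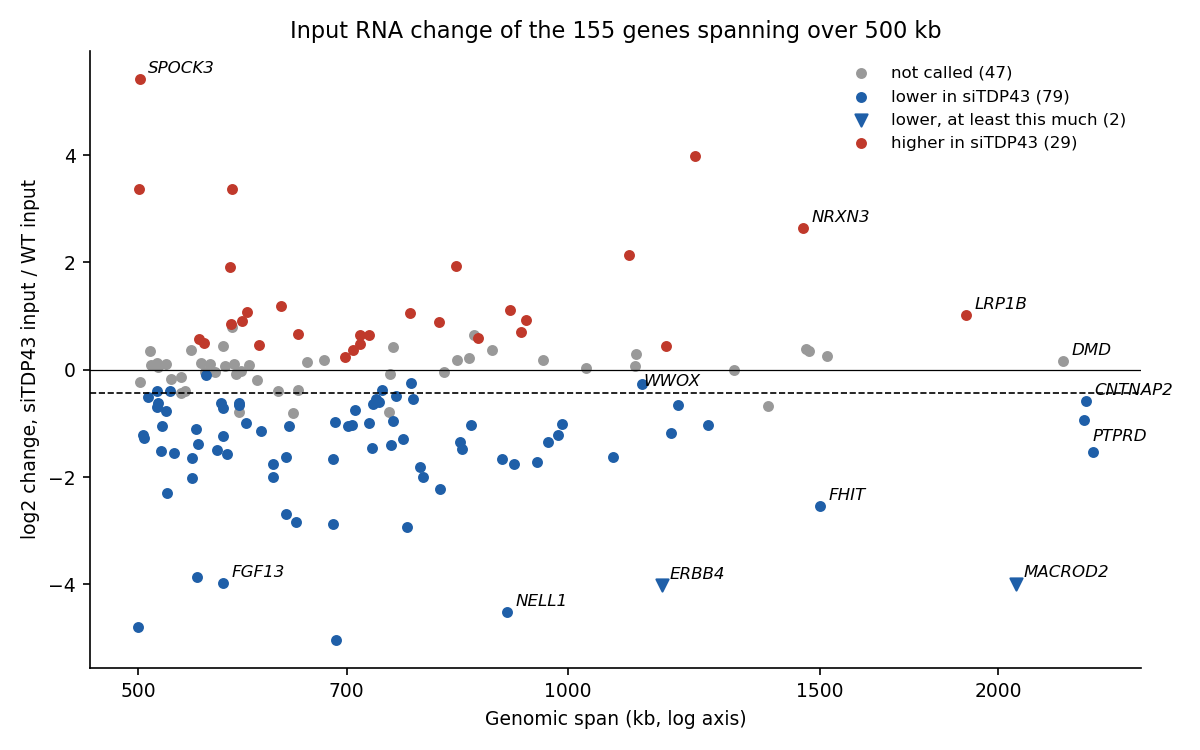
Each point is 1 of the 155 genes, with its genomic span in kb (log axis) against the log2 change of its input level after TDP43 knockdown. Blue points were lower, red points higher and grey points not called at an adjusted p below 0.05, triangles are genes at no more than 3 counts in every siTDP43 library, drawn at the smallest fall their counts allow, and the dashed line is the median of -0.43. Falls and rises lie side by side up to LRP1B at 1900.3 kb, and the wider entries hold no called rise.

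Without matching for expression level, the long genes differed from shorter genes more in the share that rose than in the share that fell. Lower genes made up 45.9% of genes up to 10 kb, 36.1% of those of 30 to 100 kb, 42.3% of those of 300 to 500 kb and 51.0% of those over 500 kb. Higher genes made up 35.9%, 45.6%, 35.8% and 18.7% of the same classes. Median log2 changes in these classes were -0.16, 0.12, -0.10 and -0.43. Within the 155 genes, span bore almost no relation to the change (Spearman rho 0.02 across genes, which are not independent replicates), nor did the longest exon-free stretch (-0.05) or the number of TG repeats (0.02). Exon GC content had the strongest rank correlation of the 8 properties compared (-0.31).

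Expression level moved with this difference. The median gene over 500 kb had a mean input count of 124.8, against 585.8 for genes of 30 to 100 kb, and shorter genes of low abundance also had negative medians. Among genes of 20 to 104.3 counts, the 65 long genes had a median log2 change of -0.78 and the 2527 shorter genes -0.55. Among genes of 104.5 to 315 counts, the medians were -0.50 for 57 long genes and -0.35 for 2534 shorter genes, and among genes of 315.3 to 809.2 counts they were 0.17 for 22 long genes and -0.0416 for 2571 shorter genes. Lower genes made up 53.8% of the long and 47.0% of the shorter genes in the lowest of these classes. These shares were 54.4% and 50.1% in the second class, and 27.3% and 43.1% in the third. Higher genes made up 12.3% of the long and 18.3% of the shorter genes in the lowest class. These shares were 15.8% and 26.4% in the second class, and 40.9% and 40.5% in the third. The 8 long genes of 809.7 to 2317.2 counts had a median of -0.09 and the 3 above that -1.22, where shorter genes were at 0.28 in both classes. Shorter genes of low abundance thus also had negative medians, and the difference that remained within classes was not tested.

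**Figure D2:**
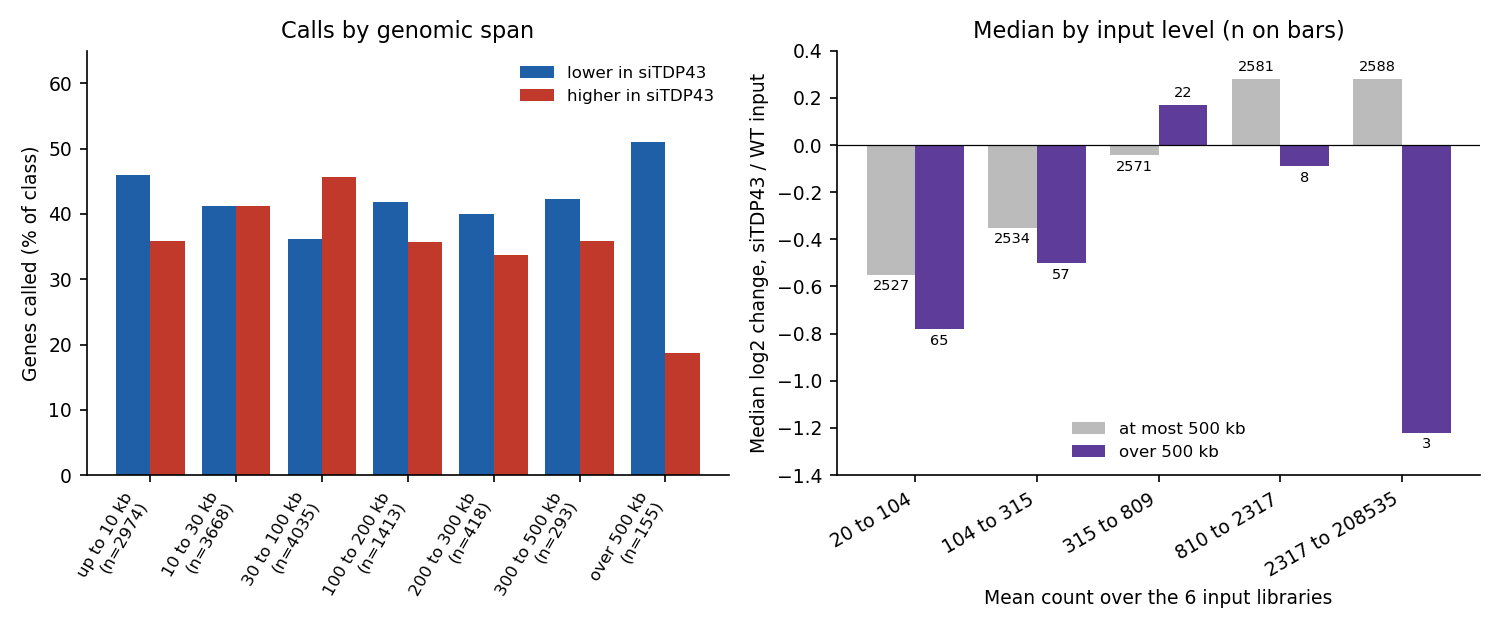
Left, the percentage of genes lower (blue) and higher (red) in siTDP43 input in 7 classes of genomic span, with the number of genes under each class. Right, the median log2 change of genes over 500 kb (purple) and of shorter genes (grey) in 5 classes of mean input count, with the number of genes on each bar. The long genes stand apart by few rises (18.7%) in the left panel, which is not matched for expression level. In the right panel both kinds of gene have negative medians in the 2 lowest classes.

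Removing a trend with exon GC content from all genes moved the median of the long genes from -0.43 to -0.68. The lower genes went from 79 to 94 (60.6%, all genes 41.6%). Requiring a mean of 100 input counts left 90 genes with a median of -0.21, of which 44 (48.9%) were lower and 21 (23.3%) higher. Widening the limit to 300 kb gave a median of -0.20 over 444 genes. Narrowing it to 1 Mb gave 25 genes with a median of -0.000389, of which 11 (44%) were lower and 5 (20%) higher. The genes beyond 1 Mb were therefore not the ones with the lowest median. The shares of all genes, 40.6% lower and 38.6% higher, were not recomputed under these changed member rules. They are thus not matched to the rule of 100 input counts. Among shorter genes, 50.1% were lower at 104.5 to 315 counts and 43.1% at 315.3 to 809.2 counts, with smaller shares above that. The shares higher in these classes were 26.4% and 40.5%, with larger shares above that.

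Position on the chromosome was compared by taking the other tested genes within 1 Mb of each long gene. For the 121 long genes with at least 3 such neighbours, the median of the neighbours' medians was 0.11, while the long genes themselves had a median of -0.54. Of these, 88 lay below their neighbours. The neighbours were not matched for expression level, and no such share is at hand for other genes, so this count is a description. Some long genes changed like the genes around them: KAZN was at -1.05 with 18 neighbours at a median of -0.95, and TRAPPC9 at -1 with 7 at -1.01, both chosen after their values were seen.

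The 5 largest falls among genes with a mean of at least 50 counts were of genes with diverse roles. NELL1 (chr11:20691117-21597229), which encodes a secreted protein with EGF-like repeats, measured 15.2, 17.1 and 14 CPM in WT input and 0.332, 1.51 and 0.297 CPM in siTDP43 input. FGF13 (chrX:137713734-138287185), a non-secreted FGF relative that binds voltage-gated sodium channels, measured 14.7, 15 and 16.3 CPM and then 1.06, 1.26 and 0.594 CPM. DACH2 (chrX:85403455-86087605), a dachshund-family transcription cofactor, went from 5.13, 6.85 and 6.47 CPM to 0.929, 0.755 and 0.817 CPM. The log2 changes were -4.51 ± 0.26 for NELL1 (adjusted p = 2.49e-16), -3.98 ± 0.18 for FGF13 (1.19e-18) and -2.87 ± 0.23 for DACH2 (1.29e-12). NELL1 passed the count minimum only through its WT level.

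FHIT (chr3:59735036-61237133), a dinucleoside polyphosphate hydrolase at the FRA3B fragile site, had the highest CPM of these 5 genes. It measured 36.2, 35.6 and 35.7 CPM in WT input and 5.25, 5.99 and 7.32 CPM in siTDP43 input. The remaining level was 17.2% of WT, with a log2 change of -2.54 ± 0.10 (adjusted p = 4.3e-20). SPOCK1 (chr5:136310987-136835018), a testican proteoglycan, fell from 3.87 ± 0.427 to 0.781 ± 0.168 CPM (SD, n = 3 each), a log2 change of -2.29 ± 0.27 (adjusted p = 4.88e-09 in edgeR).

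Several genes all but disappeared, though from low levels, and were chosen after their values were seen. ERBB4, the neuregulin receptor tyrosine kinase, measured 1.66, 2.03 and 1.77 CPM in WT input and had 0 counts in every siTDP43 input library. At a floor of 3 counts per library it was at least 16.2-fold lower (adjusted p = 5.39e-10). MACROD2, an ADP-ribosyl hydrolase that spans 2057.7 kb, measured 1.49, 2.05 and 1.77 CPM in WT input and no more than 0.0743 CPM in any siTDP43 library, at least 15.8-fold lower (adjusted p = 5e-09). CDH4, a classical cadherin, and AFF2, a nuclear protein of the transcription elongation machinery, fell from 2.56 ± 0.152 to 0.0722 ± 0.0672 CPM and from 2.20 ± 0.562 to 0.0838 ± 0.145 CPM. These 4 genes had few reads in WT as well, and AFF2, ERBB4, CDH4 and MACROD2 were all among the 19 retained on their WT level alone.

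The rises were fewer. SPOCK3 (chr4:167654536-168155741), another testican proteoglycan, measured 0.139, 0.533 and 0.419 CPM in WT input and 16.8, 17.9 and 14.5 CPM in siTDP43 input, a log2 change of 5.42 ± 0.22 (adjusted p = 4.76e-20). The paralogs SPOCK1 and SPOCK3 thus changed in opposite directions. GALNT13, which starts mucin-type O-glycosylation, rose from 0.728, 0.8 and 0.838 CPM to 6.61, 9.77 and 8.36 CPM, and its log2 change was 3.37 ± 0.22 (9.16e-15).

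NRXN3 (chr14:78870093-80330760), a presynaptic adhesion protein, rose from 1.21, 1.65 and 1.47 CPM to 8.96, 8.64 and 9.62 CPM, a log2 change of 2.64 ± 0.19 (adjusted p = 4.44e-14). CDH12, a type II cadherin, rose from 1.2 ± 0.0584 to 5.33 ± 0.963 CPM, a log2 change of 2.14 ± 0.23 (8.24e-10). MECOM, a zinc finger transcription factor, rose from 5.46 ± 0.818 to 20.6 ± 0.742 CPM, a log2 change of 1.91 ± 0.12 (1.99e-15). That the libraries of the groups did not overlap was a condition for naming these 5 genes. SPOCK3, however, passed the count minimum only through its siTDP43 level, as did GALNTL6, HDAC9, MDGA2 and PPFIA2.

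**Figure D3:**
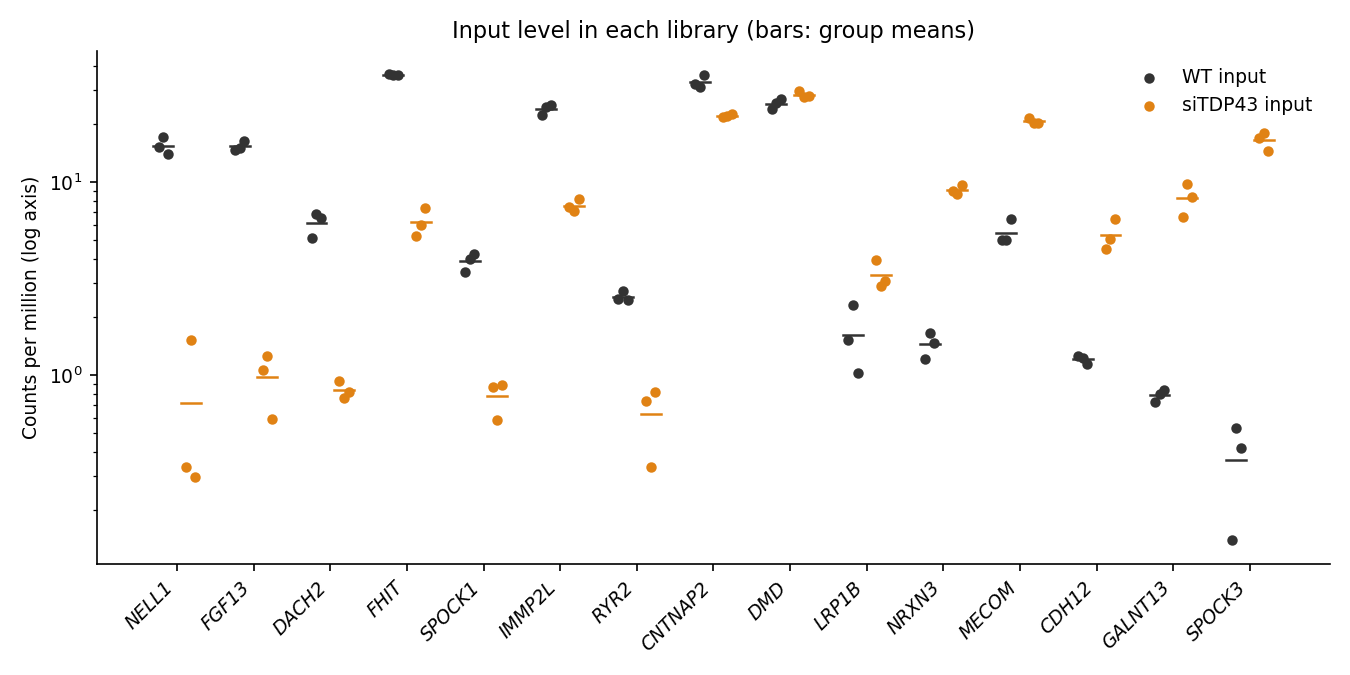
Input level of 15 long genes in each library, in CPM on a log axis, with WT input in black, siTDP43 input in orange and short bars at the group means. NELL1 drops from a mean of 15.4 to 0.713 CPM, DMD stays near 25.4 and 28.3 CPM, and SPOCK3 climbs from 0.364 to 16.4 CPM.

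The widest genes did not move together. CNTNAP2 (chr7:145813453-148118088), a neurexin-family adhesion protein and at 2304.6 kb the widest single locus, measured 32.3, 31.0 and 35.9 CPM in WT input and 21.6, 22 and 22.4 CPM in siTDP43 input, a log2 change of -0.59 ± 0.0786 (adjusted p = 6.1e-08). DMD (chrX:31137345-33357726), the gene for dystrophin, measured 23.8, 25.6 and 26.8 CPM and then 29.5, 27.5 and 27.9 CPM. Its siTDP43 libraries all lay above its WT libraries, but the log2 change of 0.16 ± 0.0780 did not pass the test (adjusted p = 0.067). It passed as a rise with DESeq2's size factors and after removal of the exon length trend, and was -0.25 after removal of the GC trend. PTPRD, a receptor tyrosine phosphatase, fell by 0.93 on the log2 scale (adjusted p = 0.00374).

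LRP1B, a giant endocytic receptor, measured 1.52, 2.29 and 1.02 CPM in WT input and 3.92, 2.89 and 3.05 CPM in siTDP43 input, a log2 change of 1.02 ± 0.27 (adjusted p = 0.0011). PDE4D, a cAMP phosphodiesterase, FAM190A, and GPC5, a glypican, had log2 changes of 0.25, 0.35 and 0.38 with overlapping libraries and did not pass (adjusted p = 0.252, 0.154 and 0.117). ULK4P3, the entry made of several loci, fell by 1.53 on the log2 scale (adjusted p = 0.00114). Of the 10 entries with the widest span, 5 were thus lower, 1 higher and 4 not called.

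The most abundant of the long genes included several metabolic enzymes. Per kilobase of exon, GMDS led with 72.4 CPM per kb in WT input, followed by ADK with 54.2 and FHIT with 32.9. GMDS, which takes part in the conversion of GDP-mannose to GDP-fucose, measured 128.3, 125.3 and 128.7 CPM in WT input and 38.5, 38.5 and 36.1 CPM in siTDP43 input, a log2 change of -1.76 ± 0.0524 (adjusted p = 1.49e-23). CAMTA1, a calmodulin-binding transcription activator, measured 195.4, 184.7 and 199.3 CPM and then 79.8, 81.9 and 87.0 CPM, a log2 change of -1.22 ± 0.0473 (1.2e-20). Both kept their 3 siTDP43 libraries far below all WT libraries.

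FAF1, a ubiquitin-binding adaptor in protein degradation, fell to 34.9% of WT (log2 change -1.52 ± 0.0747, adjusted p = 5.61e-18). The histone and kinase methyltransferase SMYD3 fell to 71.3% (-0.49 ± 0.0690, 1.79e-07), and SPAG16, an axonemal protein, to 83.2% (-0.27 ± 0.0650, 0.000491). ADK, adenosine kinase, had the smallest change that passed (-0.10 ± 0.0448, adjusted p = 0.045) and lost the call under 9 of the alternatives, among them DESeq2 and leaving out any 1 input library other than WT replicate 2.

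EXOC4, a subunit of the exocyst that tethers secretory vesicles, ran the other way, from 33.4, 31.8 and 33.6 CPM to 62.3, 60.3 and 60.9 CPM, a log2 change of 0.89 ± 0.0614 (adjusted p = 2.39e-14). ROBO1, a Slit receptor, rose by a log2 change of 0.45 ± 0.0740 (2.32e-06) and BCAS3 by 0.48 ± 0.0806 (3.09e-06). FARS2, the mitochondrial phenylalanyl-tRNA synthetase, did not pass (0.0854 ± 0.0695, adjusted p = 0.26). Among the 10 long genes with the highest input CPM, 6 were lower, 3 higher and 1 not called.

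The genes were also grouped in broad role lists, which hold some genes with other roles. The testican genes SPOCK1 and SPOCK3 stand under cytoskeleton and scaffold, and IMMP2L, a mitochondrial peptidase gene, under transcription, chromatin and RNA. In the list of ion channels, receptors and synaptic release proteins, 11 of 14 long genes were lower and 0 higher. Their median log2 change was -1.61, against 51.0% lower and a median of -0.43 over all 155. CACNA1C, ERBB4, GRM8, RYR2 and THSD4 of this list were retained on their WT level alone, and of the other 9 genes 7 were lower, with a median of -1.49. KCNQ5, a voltage-gated potassium channel, fell from 9.63, 10.4 and 9.40 CPM to 2.39, 3.77 and 3.83 CPM (log2 change -1.57 ± 0.17, adjusted p = 6.74e-10). RYR2, the calcium release channel of the endoplasmic reticulum in heart and brain, fell from 2.46, 2.72 and 2.45 CPM to 0.730, 0.335 and 0.817 CPM (-1.99 ± 0.33, 3.11e-06). SYT1, the calcium sensor of synaptic vesicles, fell by 0.65 on the log2 scale (adjusted p = 0.000622), and SLC9A9, a sodium and proton exchanger of endosomes, did not pass (0.10 ± 0.18, adjusted p = 0.605).

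The cytoskeleton and scaffold list also held mostly lower genes, 14 of 22, with 3 higher and a median of -0.66. Over all 155 genes, 51.0% were lower and 18.7% higher. Of the list's 18 genes that reached the count minimum in both groups, 12 were lower and 1 higher. ANK3, an ankyrin that anchors membrane proteins to spectrin, was among the risers (log2 change 0.36 ± 0.10, adjusted p = 0.00214), with SPOCK3 and the liprin PPFIA2. SPOCK3 and PPFIA2 were retained on their siTDP43 level alone. UTRN, the dystrophin relative utrophin, did not pass (0.11 ± 0.14, adjusted p = 0.483). In the list of transcription, chromatin and RNA factors, 15 of 23 were lower and 6 higher, with a median of -0.65. Of the 20 that reached the minimum in both groups, 13 were lower and 5 higher. SUPT3H, a SAGA complex subunit, fell to 46.6% of WT (-1.10 ± 0.0927, 3.16e-12), RAD51B, a recombination protein, to 84.2% (-0.25 ± 0.0856, adjusted p = 0.00951), and RAD51B lost the call in the fit of all 17 libraries. The forkhead factors FOXP1 and FOXP2, chosen after their values were seen, rose by log2 changes of 1.18 (adjusted p = 7.91e-12) and 0.47 (0.000368).

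The adhesion and synapse proteins were split, with 14 of 30 lower, 9 higher and a median of 0.10, where 51.0% of all 155 genes were lower and 18.7% higher. Of the 25 that reached the count minimum in both groups, 10 were lower and 8 higher. PTPRK, a receptor tyrosine phosphatase of cell contacts, rose by a log2 change of 0.58 ± 0.0804 (adjusted p = 1.17e-07) and the protocadherin PCDH9 by 0.70 ± 0.0882 (2.23e-08). Signalling enzymes had 7 of 20 lower and 2 higher, with a median of -0.20. DENND1A, a Rab exchange factor, fell to 38.1% of WT (-1.39 ± 0.14, 1.41e-10), while DOCK1, a Rac exchange factor, and RABGAP1L, a Rab GTPase activator, did not pass (0.14 and 0.19, adjusted p = 0.205 and 0.0755). In the list of trafficking, metabolism and ubiquitin proteins 5 of 21 were lower and 7 higher, with a median of 0.0854. Of the 19 that reached the minimum in both groups, 4 were lower and 6 higher. The remaining 25 genes fell in none of these lists, and 13 of them were lower and 3 higher. Of the 20 of these that reached the minimum in both groups, 9 were lower and 3 higher.

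**Figure D4:**
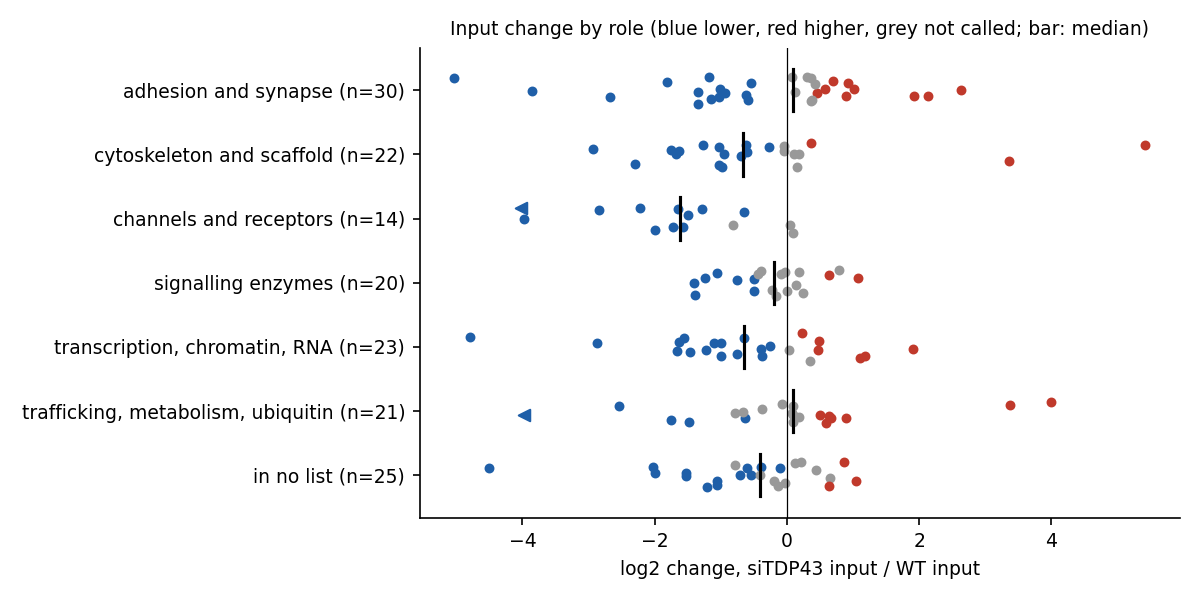
Log2 change of the input level after knockdown (x axis) for each long gene, 1 row per broad role list, with blue for lower, red for higher and grey for not called, black bars at the medians and left-pointing triangles for genes drawn at the smallest fall their counts allow. Channels and receptors hold no red point and have the lowest median (-1.61), and adhesion and synapse genes lie on both sides of 0.

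Of the 24 genes listed for common fragile sites, 16 were long genes with the required count, and 10 of these were lower, 1 (LRP1B) higher and 5 not called, with a median of -0.61, where 51.0% of all 155 were lower. Of the 15 that reached the count minimum in both groups, which leaves out MACROD2, 9 were lower. Besides FHIT and MACROD2, the mitochondrial peptidase gene IMMP2L fell from 22.1, 24.3 and 24.9 CPM to 7.40, 7.08 and 8.14 CPM (log2 change -1.66 ± 0.10, adjusted p = 3.08e-15), and DPYD, which degrades uracil and thymine, fell by 1.48 on the log2 scale (1.08e-05). AUTS2, the reelin adaptor DAB1, the phosphatase PTPRG, the nuclear receptor RORA and the trafficking protein NBEA fell by between 0.37 (RORA) and 1.03 (DAB1), with adjusted p from 0.000479 to 0.0371. RORA lost the call by DESeq2 and without WT input replicate 2 or 3 or siTDP43 input replicate 2 or 3. NBEA lost it by DESeq2 and without WT input replicate 1 or siTDP43 input replicate 1 or 3. WWOX, an oxidoreductase at FRA16D, measured 22.5, 21.0 and 20.7 CPM in WT input and 25.6, 21.7 and 20.2 CPM in siTDP43 input, libraries that overlap (0.0778 ± 0.0913, adjusted p = 0.437), and the cGMP-dependent kinase PRKG1 had a log2 change of -0.000389 ± 0.15 (adjusted p = 0.998).

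Among the long genes listed as known from TDP43 loss in brain, RYR2 was lower and NRXN3 higher. NLGN1, a postsynaptic partner of neurexins, measured 2.83 ± 0.356 CPM in WT and 3.68 ± 0.645 CPM in siTDP43 input (adjusted p = 0.112) and did not pass the test, although the libraries of the groups did not overlap. This list was drawn up with results of these data known.

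In the pull-downs the long genes were compared with input and with IgG inside each genotype, where a call needed an adjusted p below 0.05 and a change above 2-fold. CPM here are scaled within each genotype. Depth differed between the fractions. The long genes took 0.169 to 0.176% of counts in WT input and 0.127 to 0.130% in siTDP43 input, and 0.221 to 0.226% in WT IgG but 0.0775 to 0.0817% in siTDP43 IgG. Total counts were 27718784 to 36583436 in WT input, where all 155 genes were above the floor of 3 counts in some library, and 3013989 to 3436811 in siTDP43 IgG, where 83 of the 155 had no more than 3 counts in any library.

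In WT, 48 of 153 long genes were higher in IP than in input (31.4%, all genes 30.2%) and 41 lower (26.8%, all genes 27.3%). Against IgG, 52 were higher (34%, all genes 35.2%) and 36 lower (23.5%, all genes 17.8%). In IgG against input, 48 were higher (31.4%, all genes 24.4%) and 61 lower (39.9%, all genes 36.6%). The shares in WT IP against input thus lay near those of all genes in the main fit. With the exon length trend removed they moved apart, to 17.6% higher (all genes 28.7%) and 33.3% lower (all genes 25.8%). The gene that led the IP rises was also high in IgG. MAGI1, a scaffold of cell junctions, measured 69.1, 72.9 and 70.7 CPM in WT IP and 57.5 and 59.2 CPM in WT IgG, against 4.16 ± 0.279 CPM in WT input (n = 3).

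PARD3B, a polarity scaffold, similarly averaged 30 CPM in WT IP, 43.3 CPM in WT IgG and 2.57 CPM in WT input. ODZ1, TSHZ2 and AUTS2 completed the 5 largest rises over input, with log2 changes of 3.11, 2.98 and 2.94 (adjusted p up to 4.83e-16). The largest falls were DACH2 (-6.58 ± 0.50, adjusted p = 1.18e-11), RAD51B (-5.43 ± 0.26, 1.94e-15), LOC440354 (-3.87), DNM3 (-3.24) and LOC647946 (-3.09). RAD51B measured 0.462, 0.816 and 0.296 CPM in WT IP against 23.1 ± 0.590 CPM in WT input.

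Against WT IgG, CACNA2D3, a calcium channel subunit, PTPRD, FRMD4A, KIAA1217 and SLC9A9 had 0 counts in both IgG libraries and were at least 27.1, 24.2, 19.7, 16.1 and 12.3-fold higher in IP. SPOCK1, SEMA6D, ST6GALNAC3 and RBMS3 were among the largest falls, with log2 changes of -3.71, -3.70, -3.32 and -2.75 (adjusted p up to 6.06e-10). SNX29, a sorting nexin, was the long gene most above input in WT IgG, at 126.4 ± 13.4 CPM (n = 2) against 5.97 ± 0.661 CPM (log2 change 4.40 ± 0.12, adjusted p = 9.11e-20), followed by SORCS2, PARD3B and MAGI1 (4.14, 4.06 and 3.80). ASTN2, ULK4, EPHA6, SLC9A9 and LOC440354 had 0 counts in WT IgG and were at least 28.5, 16.4, 15, 13.2 and 11.0-fold higher in input.

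After knockdown, more of the long genes were lower in IgG than in input. Of 129 long genes tested, 75 (58.1%) were lower in siTDP43 IgG than in input and 22 (17.1%) higher, where 41.0% and 24.7% of all genes were. The share lower rose along the classes of span, from 31.6% up to 10 kb and 46.4% at 30 to 100 kb to 57.2% at 300 to 500 kb. With genes at the floor set to the smallest change their counts allow, the median was -0.63 for the long genes and -0.28 for all genes, and 45.7% of the long genes but 20.2% of all genes were at the floor in 1 of the groups. Among genes of 20 to 104.3 input counts, 57.1% of 42 long genes and 48.4% of 1849 shorter genes were lower. At 104.5 to 315 counts these shares were 55.6% of 54 and 46.1% of 2499. The gap was widest at 315.3 to 809.2 counts, with 68.2% of 22 and 41.3% of 2567. Above that, they were 62.5% of 8 and 41.5% of 2579, then 33.3% of 3 and 34.2% of 2585 in the highest class.

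PCDH9, RAD51B, VPS13B, EPHA6 and SORCS1 had 0 counts in all 3 siTDP43 IgG libraries and were at least 18, 13.3, 8.33, 6.57 and 6.02-fold higher in siTDP43 input. MAGI1 again ran the other way, at 34, 44.3 and 54.5 CPM in siTDP43 IgG against 0.973 ± 0.178 CPM in input (log2 change 5.50 ± 0.27, adjusted p = 2.23e-14), followed by KCNQ5, AUTS2, PARD3 and DOCK3 (4.37, 3, 2.92 and 2.32). The low depth of siTDP43 IgG moved with these values, and its part in the result was not tested.

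The comparison of siTDP43 IP with IgG uses the same IgG libraries. Of 129, 69 (53.5%) were higher in IP than in IgG and 19 (14.7%) lower, where 34% and 15% of all genes were, and the median with bounds was 0.58 against 0.20. Over input, which shares no IgG library, 28 (21.7%) were higher and 41 (31.8%) lower, where 26.8% and 25.4% of all genes were. RAD51B, PCDH9, IMMP2L and SDK1 had 0 counts in siTDP43 IgG and were at least 19.0, 16.1, 9.96 and 8.20-fold higher in IP. DIAPH2, a formin, was next (4.39 ± 0.61, adjusted p = 1.39e-06), and MAGI1, GALNT13, DOCK1 and WWOX were the largest falls (-2.82, -1.41, -1.09 and -1.01), the last pair close to the 2-fold limit and under it in several alternatives.

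Over siTDP43 input, the adhesion protein SDK1, ATRNL1, the kinase MAST4, KCNQ5 and DIAPH2 rose most (log2 changes of 3.77, 3.53, 3.50, 3.40 and 3.15, adjusted p up to 3.07e-08). ELMO1, a partner of DOCK proteins, had no more than 3 counts in any siTDP43 IP library and was at least 16.5-fold higher in input, and SLC9A9 at least 12.9-fold. PTPRK, DNM3 and PDE4D fell by 4.34, 4.33 and 3.73 on the log2 scale.

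**Figure D5:**
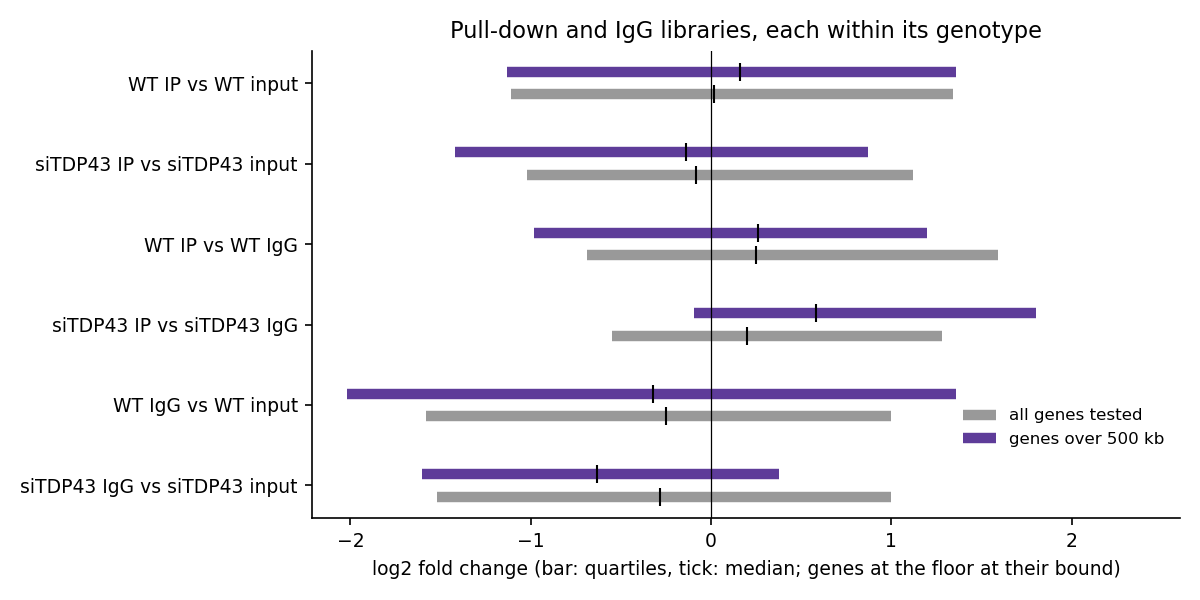
Bars give the lower to upper quartile, and ticks the median, of the log2 fold changes of the long genes (purple) and of all genes tested (grey) in 6 comparisons within a genotype, with genes at no more than 3 counts in every library of 1 group set to the smallest change their counts allow. Medians lie close together in WT, and the long genes lie higher in siTDP43 IP vs IgG (median 0.58 against 0.20) and lower in siTDP43 IgG vs input (-0.63 against -0.28).

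Transcripts more than 2-fold higher in IP than in both input and IgG were counted as ac4C(+). In WT, 16 of 153 long genes met this (10.5%, all genes 15.6%), and in siTDP43 cells 17 of 129 (13.2%, all genes 10.3%). Of 127 long genes tested in both, FRMD4A, LINC00478 and RYR2 met it in both, 18.8% of the WT list and 17.6% of the siTDP43 list. The matching overlap over all genes is not at hand, so this overlap cannot be read as a trait of the long genes. RYR2 was retained on its WT level alone. RYR2 measured 10.3, 12.5 and 12.3 CPM in WT IP, 1.31 and 0.233 CPM in WT IgG and 2.69 ± 0.168 CPM in WT input. In siTDP43 cells it measured 3.58, 5.17 and 1.88 CPM in IP and 0.496 ± 0.205 CPM in input, with 0 counts in IgG, at least 3.22-fold. The log2 ratio of IP to input was 2.12 in WT and 2.82 in siTDP43.

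The change of the IP ratios between genotypes was tested as an interaction over all 17 libraries. For IP over input, 36 of 155 long genes rose (23.2%, all genes 31.5%) and 64 fell (41.3%, all genes 36.3%). For IP over IgG, 55 rose (35.5%, all genes 34.9%) and 27 fell (17.4%, all genes 25.9%). RAD51B had the largest rise over input (5.80 ± 0.33, adjusted p = 2.21e-17), with 20.9, 19.9 and 21.8 CPM in siTDP43 IP against 14.6 ± 0.132 CPM in siTDP43 input (n = 3). KCNQ5 was next (4.28 ± 0.26, 4.99e-17), with 5.36, 5.44 and 4.48 CPM in WT IP and 29.5, 24.4 and 29.1 CPM in siTDP43 IP.

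KCNQ5, however, was higher still in IgG, at 8.74 and 6.05 CPM in WT and 50.9, 62.5 and 49.6 CPM in siTDP43. LOC440354, LOC647946 and GPR98 followed (3.96, 3.59 and 3.26), and KIAA1217, THSD4, GRID1, DPYD and SYN3 fell most (adjusted p up to 0.000129), all of them with 0 counts in every siTDP43 IP library. KIAA1217 measured 4.99, 5.35 and 6.01 CPM in WT IP and had 0 counts in every siTDP43 IP library.

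Over IgG, the largest rises, of SNX29, RBMS3, RAD51B, GPC6 and VPS13B, all rested on 0 counts in siTDP43 IgG, so their fitted sizes depend on the prior count. RAD51B lost this call without WT IgG replicate 1 (adjusted p = 1). Among the falls, CACNA2D3 and PTPRD rested on 0 counts in WT IgG, while GPHN, the inhibitory synapse scaffold gephyrin, GALNT13 and HIVEP3 had counts in some WT IgG library (-4.13 ± 0.39, adjusted p = 8.73e-12 for GPHN, -4.88 ± 0.64, 2.25e-08 for GALNT13 and -6.73 ± 0.86, 1.22e-08 for HIVEP3, which was at the floor in siTDP43 IP, so its size depends on the prior count).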

How the data were processed

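Per the labels and the methods, reads were trimmed with Trim Galore 0.6.7, aligned with STAR 2.7.10a and counted per gene with featureCounts 2.0.2, and the authors deposited raw counts. The labels name a mouse build, whereas the table's positions fit human hg19. Between 81.3% and 95.9% of counts from 1 to 20 were even in each library, and how fragments were counted is not given in the sources used here. Counts were tested with edgeR 4.0.16 (TMM scaling, filterByExpr with a minimum of 10, quasi-likelihood F test, Benjamini-Hochberg adjustment over all genes of a fit), over the 6 input libraries, the 8 WT libraries, the 9 siTDP43 libraries or, for interactions, all 17. CPM are on the scale of the fit named. The test was tried on simulated counts with 200 genes changed by 2 log2 units and recovered 99.5% of them in the input comparison. The long genes and all gene lists were chosen with earlier results of these data known. Genes named are the 10 widest, the 10 highest in input CPM, the 5 largest rises and falls per comparison with 50 or more counts on average and, except for interactions, no overlap of libraries, the fragile-site and brain lists, up to 4 per role, and those said to be chosen after their values were seen. Alternatives were DESeq2 1.42.0, other scalings, filters, trends and member rules, the replicate block and leaving out each library. TG repeats were read from GRCh37. Some items covered by these rules are not reported here.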

Additional observations from a re-analysis of the deposited data

Results flagged for a closer look

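Several long genes had IP ratios of opposite sign in WT and siTDP43 cells, each past an adjusted p of 0.05 in both genotypes and in the interaction. Of 127 tested in both genotypes, 20 (15.7%, all genes 14.7%) were of this kind over input and 31 (24.4%, all genes 28.7%) over IgG. Those named for the largest changes of an IP ratio over the same control are given with the interaction's log2 difference, siTDP43 minus WT. Over input they were RAD51B (5.80), KCNQ5 (4.28), GPR98 (3.26) and KIAA1217 (-9.74, with 0 counts in siTDP43 IP). Over IgG they were MAGI1 (-3.05), GPHN (-4.13), GALNT13 (-4.88), WWOX (-1.77) and HIVEP3 (-6.73, at the floor in siTDP43 IP). SNX29 (12.67), RBMS3 (11.66), GPC6 (11.36), VPS13B (11.30), SEMA6D (9.96) and ST6GALNAC3 (8.16) had no more than 3 counts in any siTDP43 IgG library, so these fitted differences depend on the prior count and are not bounds. Genes named above for other reasons also had ratios of opposite sign. Among them were ROBO1 (-2.44), IMMP2L (2.71) and UTRN (-3.78) over input, and ADK (3.06) and EXOC4 (2.41) over IgG. Groups of 2 or 3 libraries were too small to look for single outlying libraries.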

How the results depend on the processing

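Shares of long genes called are percentages of those tested. The median input change of -0.43 was -0.48 with the replicate number as a block, -0.52 with total count scaling, -0.68 with the exon GC trend removed, -0.20 for spans over 300 kb, -0.000389 over 1 Mb, -0.40 for genes of 1 locus on 1 strand -0.21 with at least 100 input counts and -0.27 for genes reaching the minimum in both groups, a rule added after seeing the data. Genes higher in siTDP43 input made up 30% for spans over 300 kb (all genes 38.6%). With the exon length trend removed, 17.6% were higher in WT IP vs input (all genes 28.7%) and 5.88% were ac4C(+) in WT. With the GC trend removed, 34.9% were higher in siTDP43 IP vs input and 21.7% were ac4C(+) in siTDP43. Over 1 Mb, 20.8% were higher in WT IP vs IgG (all genes 35.2%) and 5.26% were ac4C(+) in siTDP43. At 100 input counts, 5.56% were ac4C(+) in WT and 6.9% in siTDP43, which was 7.89% with at least 50 counts and 8.39% with all 17 libraries in 1 fit. By DESeq2, 29% fell in the change of IP vs IgG. The causes were not tested.

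The input change reversed in genes that changed little. With the GC trend removed it was -0.25 for DMD, -0.15 for PDE4D, -0.10 for FAM190A, -0.0765 for NLGN1, -0.022 for ANK3, -0.29 for UTRN, -0.23 for SLC9A9, -0.10 for DOCK1 and -0.24 for RABGAP1L. With total count scaling it was -0.00572 for FARS2 and -0.0134 for WWOX, and with the exon length trend removed -0.00618 for WWOX and -0.039 for SLC9A9. PRKG1 was 0.0152 by DESeq2, 0.0153 with its size factors and 0.00642 with no filter. Leaving out 1 library gave -0.0251 to 0.15 for WWOX, -0.13 to 0.11 for PRKG1, -0.000718 to 0.29 for UTRN and -0.48 to -0.41 for the median. It gave 17.4 to 19.4% higher and 45.2 to 49.7% lower in input. The replicate numbers did not pair the samples (correlations of deviations -0.021 to 0.026), and the block gave 28 higher and 78 lower (all genes 38.3% and 40.2%). Counts halved and rounded up, an alternative chosen after seeing the data, left the median at -0.43. Of 2166 alternative values for single genes, 2098 kept direction and call. Total counts were lowest in siTDP43 IgG.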
